A study of Homo sapiens with 12 samples.

Results

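Open chromatin was examined over the 4 HOX clusters, HOXA, HOXB, HOXC and HOXD, which hold the 38 genes considered here, from HOXA2 to HOXD13. A peak was counted in a cluster when its summit, the position with the most reads, lay inside a fixed hg19 window, which was chr7:27130000-27250000 for HOXA, chr17:46600000-46810000 for HOXB, chr12:54330000-54450000 for HOXC and chr2:176940000-177060000 for HOXD. The 200 kb on each side of every window were counted apart as flanks. Of 170663 nuclear peaks called over 6 libraries, 2 lay in the clusters and 79 in the flanks. After overlapping peaks of all libraries were merged, these were 2 and 34 of 84659 regions.

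The peaks came from ATAC-seq, in which the Tn5 transposase cuts accessible DNA and leaves sequencing adapters there. The study compared accessibility between ARPE-19, an established human line of retinal pigment epithelial cells grown in DMEM with serum, and H7, an established line of human embryonic stem cells grown in mTeSR Plus, with 3 libraries each and 500000 cells per library. Neither line carried a treatment or an engineered change according to the labels, and each is 1 cell line, so a difference between lines cannot be told apart from a difference between the 2 cell types. The labels do not say whether the 3 libraries of a line came from separate cultures, so p-values measure only the spread between libraries, which may be technical. Peaks were not assigned to genes, so the cell type labels were not checked against marker genes.

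HOX genes encode homeodomain transcription factors that give cells their position along the body axis from head to tail. Within a cluster the genes point the same way, and those at the 3′ end act earlier and closer to the head than those at the 5′ end, an order known as collinearity. In pluripotent cells the clusters are known as broad domains of Polycomb repression whose promoters are rich in CpG dinucleotides, and in differentiated cells a part of each cluster is often released according to the position the cell came from.

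The HOXC and HOXD windows had no called peak in any library, so annotated starts of genes of these clusters are shown here as examples of promoter sequence from them. HOXC4 and HOXC5 share the annotated start shown here, which therefore does not mark the 3′ end of HOXC. HOXD1 is the gene at the 3′ end of HOXD, and HOXD13, which patterns the digits and the genital region, is the gene at its 5′ end. Each sequence is the 250 bases before the annotated start, taken from RefSeq on GRCh38.p14, a later build than that of the peaks, at chr12:54016638-54016887 for HOXC4, chr2:176188418-176188667 for HOXD1 and chr2:176092471-176092720 for HOXD13, all on the plus strand. Capitals mark each CG, the dinucleotide that can be methylated and that is dense in CpG islands.
HOXC4: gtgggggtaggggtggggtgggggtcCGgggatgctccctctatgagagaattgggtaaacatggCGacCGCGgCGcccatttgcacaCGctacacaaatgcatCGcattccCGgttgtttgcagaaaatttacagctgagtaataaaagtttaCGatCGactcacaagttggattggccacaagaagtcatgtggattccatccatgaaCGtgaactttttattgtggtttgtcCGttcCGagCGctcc
HOXD1: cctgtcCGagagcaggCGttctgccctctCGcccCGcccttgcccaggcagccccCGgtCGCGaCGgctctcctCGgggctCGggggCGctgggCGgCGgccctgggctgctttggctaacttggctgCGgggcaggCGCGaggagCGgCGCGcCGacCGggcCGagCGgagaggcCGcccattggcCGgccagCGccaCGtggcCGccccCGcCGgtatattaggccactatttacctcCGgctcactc
HOXD13: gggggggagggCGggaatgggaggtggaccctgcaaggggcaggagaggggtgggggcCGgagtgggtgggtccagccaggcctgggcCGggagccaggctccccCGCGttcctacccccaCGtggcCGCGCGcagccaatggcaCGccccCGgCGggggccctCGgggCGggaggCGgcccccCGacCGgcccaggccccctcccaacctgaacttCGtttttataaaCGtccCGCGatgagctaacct

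These stretches held 14 CG in HOXC4, 31 in HOXD1 and 21 in HOXD13, and their GC content was 50.8%, 74.8% and 74%. RefSeq promoters of 300 bases (250 before the start and 50 after it) matched 20 of the 38 genes by symbol, with 27 promoters in all, 7 of them of HOXA3. The one that HOXC4 and HOXC5 share is among the 27 under both names, so 26 are distinct. The motif CG, which reads the same on both strands, occurred in 96.15% of these 26 promoters and in 96.04% of all 35116 promoters of the table. The median number of CG was 22.5 in the distinct HOX promoters, with a range from 0 to 44, against 14 over all promoters, while the median GC content was 58% against 58.7%. HOXA13, which acts in the distal limb, had the most, 44 in 300 bases, and 1 of the HOXA3 promoters had none. HOXD4, a gene near the 3′ end of HOXD, had 4, so CG number differed widely along a single cluster. No value of accessibility is attached to these promoters beyond the peak counts of the whole windows given below. The genes not matched were HOXA5, HOXB2 to HOXB9, HOXB13, HOXC6, HOXC8 to HOXC13 and HOXD9.

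The peak lists differed in length between the lines. ARPE-19 replicates 1, 2 and 3 had 44451, 40105 and 48454 nuclear peaks, and H7 replicates 1, 2 and 3 had 15342, 13698 and 8613, a mean 3.53 times as many in ARPE-19. Read totals are not part of the lists. The background level of the peak caller, recovered from them as a measure of relative depth, was 0.425 to 0.483 reads for ARPE-19 and 0.592 to 0.653 for H7. How far depth accounts for the list lengths was not tested. At that background the weakest called summit had 4 reads in ARPE-19 and 5 to 6 in H7. Calls were made against the local background, so where that was higher a summit needed more reads, and a window without a peak may still hold summits that went uncalled. The median fold of a list was 6.35 to 6.65 in ARPE-19 and 5.16 to 5.49 in H7, and a difference in library quality between the lines was not tested. Less open chromatin per cell cannot be told apart from fewer cells with open chromatin.

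Inside the clusters, accessibility was called at only 2 positions, each weak and each in 1 library. HOXA had 1 peak in ARPE-19 replicate 1 and none in the other ARPE-19 libraries or in H7. HOXB had 1 peak in H7 replicate 1 and none elsewhere. The HOXC window, set around the 9 genes from HOXC4 to HOXC13, and the HOXD window, set around the 9 genes from HOXD1 to HOXD13, had 0 peaks in all 6 libraries. For a list of 40105 peaks, the shortest of ARPE-19, a count of 0 allows a share of up to 0.00748% (3 counts), and for the 8613 peaks of H7 replicate 3 it allows up to 0.0348%. These limits cover counting error only.

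The HOXA peak lay at chr7:27200505-27200804 and was 300 bases wide. Its summit had 6 reads over a local background of 0.507, and the authors' values for that peak were a fold of 4.64 over background and a −log10 q of 3.30. It ranked at the 16.6th percentile of its own list by q. HOXA genes lie on the minus strand with the 3′ end at low positions, and the summit was 70.6 kb from the 3′ edge of the window, 58.9% of the way to the 5′ edge. The HOXB peak lay at chr17:46755923-46756151 and was 229 bases wide. Its summit had 7 reads over a local background of 0.777, with an authors' fold of 4.50 and −log10 q of 2.52, at the 26.5th percentile of its list. HOXB is oriented like HOXA, and this summit was 156 kb from the 3′ edge, 74.2% of the way to the 5′ edge. Both peaks thus stood in the lower part of their lists, and both lay on the 5′ side of the middle of their window.

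**Figure D1:**
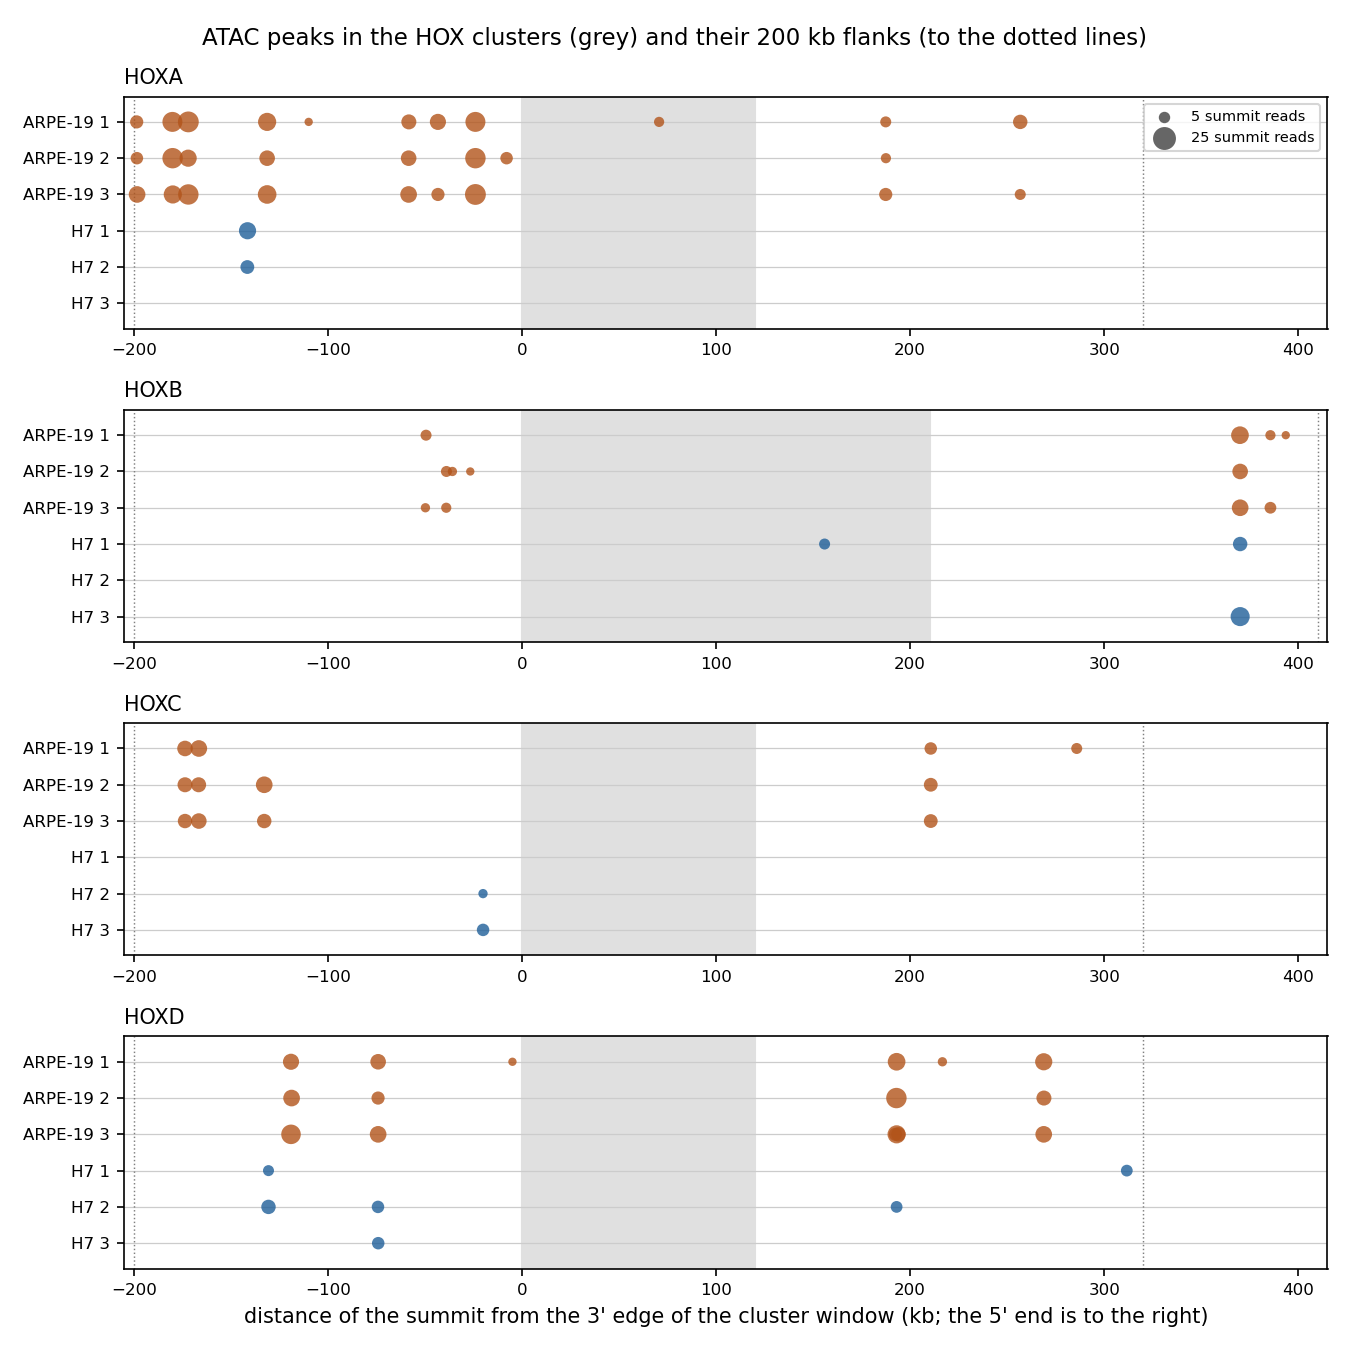
Each point is an ATAC peak of 1 library, placed by the distance of its summit from the 3′ edge of the cluster window (x axis, kb, 5′ end to the right), with a row for each of the 3 ARPE-19 and 3 H7 libraries and an area proportional to the reads at the summit. The grey windows hold 1 point in HOXA, 1 in HOXB and none in HOXC or HOXD, while ARPE-19 points line up across replicates in the flanks.

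Between lines, the number of cluster peaks had a mean of 0.333 ± 0.577 per library (SD, n = 3) for either line. The difference of log2(peaks + 1), H7 minus ARPE-19, was 0 with a standard error of 0.47 (exact two-sided permutation test over 20 assignments, p = 1). Per cluster it was −0.33 (SE 0.33) for HOXA and 0.33 (SE 0.33) for HOXB, each with an exact permutation p of 1 before and after Benjamini-Hochberg adjustment over 4 clusters, and 0 for HOXC and HOXD. With a peak in only 1 library, all 20 assignments give the same absolute difference, so the p for HOXA and HOXB was fixed in advance. It says nothing about a difference between the lines. The smallest p that 3 against 3 libraries can give is 0.1, which so few cluster peaks could not reach. The share of window bases under peaks was 0.0526% in ARPE-19 replicate 1, 0.0402% in H7 replicate 1 and 0 in the other libraries, and the mean difference of −0.00415 percentage points had an exact permutation p of 1. Cluster peaks made up a mean of 0.00075% of an ARPE-19 list and 0.00217% of an H7 list, again with an exact permutation p of 1. No difference between the lines inside the clusters was detectable at this depth, and neither cluster region was called in a second library of its own line.

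The 3′ and 5′ ends of the clusters could be compared in 1 library of each line only. In both, 0% of the covered cluster bases lay in the 3′ part of the window, so there was no contrast between the lines and no test. Widths of the 2 peaks differed by 71 bases and their summits by 1 read, with 1 library on each side and no replicate.

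A count of 0 or 1 peak has to be read against how many peaks a window of that size usually held. Over the genome, an average set of 3 windows of 120 kb and 1 of 210 kb held 8.44 peaks per ARPE-19 library and 2.39 per H7 library, against 0.333 observed in either line. Windows of 120 kb without a peak in any library were nonetheless common, at 15.8% of 24933, which is the background for HOXC and HOXD. Windows of 120 kb with at most 1 peak over the 6 libraries made up 23%, the background for HOXA. Of 14240 windows of 210 kb, the length of HOXB, 13.2% held at most 1 peak and 9.94% held none. Each cluster taken alone was therefore in the emptier part of the genome but not rare, and these tiles include unassembled and centromeric stretches, which raise the shares.

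The stretch without any called peak ran past the edges of the gene cluster in HOXC and HOXD. Around HOXC no library had a peak over 230.4 kb, from chr12:54239502-54469871, and the stretch was 343.2 kb in ARPE-19 and 348.3 kb in H7 taken separately. Around HOXD it was 197.2 kb over all 6 libraries, chr2:176867632-177064825, and 266.9 kb in H7. In HOXB the ARPE-19 libraries had no peak over 396.3 kb, from chr17:46573446-46969774, a stretch that holds the whole window. In HOXA the H7 libraries had none over 500.0 kb, from chr7:26988686-27488706. The peak-poor stretches were thus longer than the windows of the rule in every cluster for at least 1 line.

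Peak density was higher just outside the clusters than inside them, above all in ARPE-19. Inside the windows it was 0.585 ± 1.01 peaks per Mb in ARPE-19 and the same in H7 (mean ± SD, n = 3 libraries each here and below). In the first 200 kb outside it was 13.96 ± 1.301 per Mb in ARPE-19 and 2.5 ± 0.625 in H7. From 200 to 400 kb it was 19.8 ± 2.37 and 4.38 ± 1.65, and from 400 to 600 kb 20.4 ± 2.01 and 5.42 ± 0.361. From 600 to 800 kb it was 11.7 ± 2.53 and 2.92 ± 0.955, and from 800 to 1000 kb 20.8 ± 2.60 and 4.17 ± 1.57. The values outside the clusters did not climb steadily with distance, and in ARPE-19 the bin from 600 to 800 kb lay below the first one. Whole-chromosome densities ranged from 12.4 ± 1.74 on chromosome 17 to 16.05 ± 1.35 on chromosome 12 in ARPE-19, and from 2.33 ± 0.411 on chromosome 17 to 4.85 ± 1.41 on chromosome 2 in H7. Taken by cluster, the ARPE-19 flanks had 22.5 ± 2.5 peaks per Mb at HOXA, 10 at HOXB and at HOXC in each library, and 13.3 ± 2.89 at HOXD. The H7 flanks had 1.67 ± 1.44 at HOXA, HOXB and HOXC alike and 5 ± 2.5 at HOXD. Against their own chromosomes, the flanks of HOXA were denser in ARPE-19 (14.6 ± 1.36 on chromosome 7) and sparser in H7 (4.47 ± 1.22). Those of HOXB and HOXC had lower means than their chromosomes in both lines (4.37 ± 1.14 on chromosome 12 in H7). Those of HOXD had a lower mean in ARPE-19 (15.6 ± 1.55 on chromosome 2) and were near their chromosome in H7. No test was run on these differences.

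**Figure D2:**
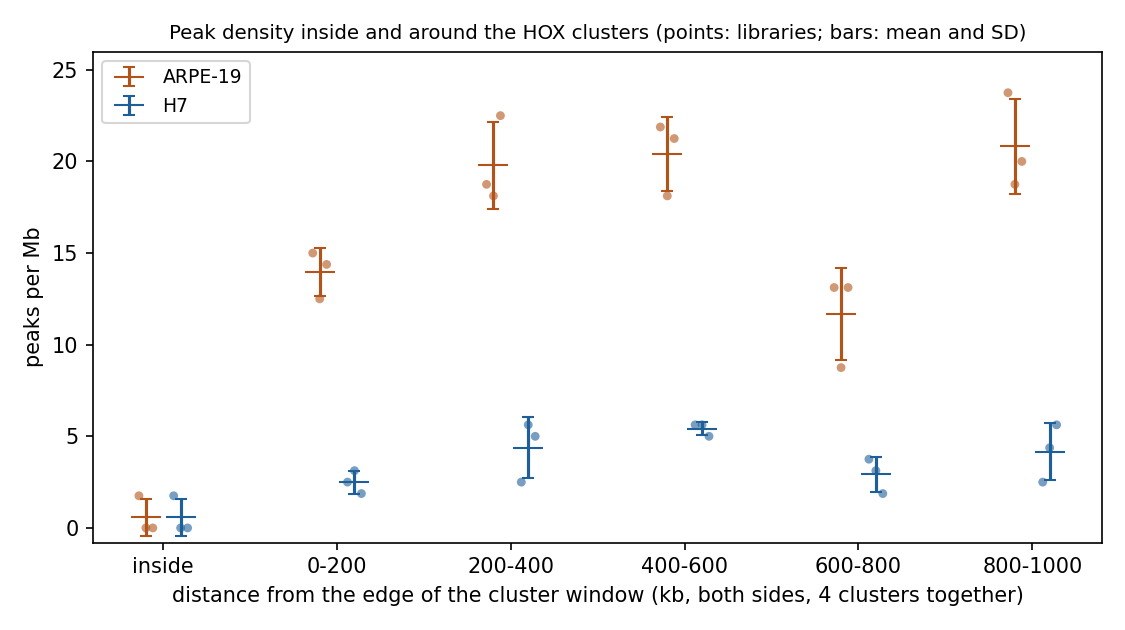
Peaks per Mb (y axis) inside the 4 cluster windows and in bins of 200 kb outside them (x axis, both sides and all clusters together), with 1 point per library and the mean and SD of 3 libraries as bars, ARPE-19 in orange and H7 in blue. ARPE-19 goes from 0.585 inside to 13.96 in the first bin outside, and H7 from 0.585 to 2.5.

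The density in the clusters was set against that in the flanks of the same library as log2 of (peaks + 1) per Mb over (peaks + 1) per Mb. This ratio was −2.16, −2.90 and −3.10 in ARPE-19 replicates 1, 2 and 3 and 0.17, −1.10 and −0.51 in H7 replicates 1, 2 and 3. Every ARPE-19 library lay below every H7 library, and the difference, H7 minus ARPE-19, was 2.24 (SE 0.46, exact two-sided permutation p = 0.1, the smallest possible). Since both lines had the same numbers inside the clusters, this difference mirrors the flanks. Over all 6 libraries the mean ratio was −1.60 (SE 0.54) and was below 0 in 5 of 6, with an exact two-sided sign-flip p of 0.0625. The added 1 weighs more on the clusters (0.57 Mb) than on the flanks (1.6 Mb) and raises the ratio. A library without any peak would score above 0, so the p against 0 is not a test of equal density. The sign flip also takes libraries of both lines as independent, though the ratios grouped by line. The density without the added 1 was lower in the clusters than in the flanks in 6 of 6 libraries, with H7 replicate 1 closest at 1.75 against 2.5 peaks per Mb. The exact sign-flip p went to 0.03125, the smallest possible, with 0.5 added in place of 1 (mean −2.31), so the call over the 6 libraries depended on the number added.

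In the flanks, more sites were called in ARPE-19 than in H7. ARPE-19 replicates 1, 2 and 3 had 24, 20 and 23 flank peaks, and H7 replicates 1, 2 and 3 had 4, 5 and 3. The groups did not overlap, at 22.3 ± 2.08 against 4 ± 1 peaks (SD, n = 3 each), a ratio of 5.58. On the scale of log2(peaks + 1), H7 minus ARPE-19 was −2.24 (SE 0.19, exact two-sided permutation p = 0.1, the smallest possible). Peaks covered 0.498% ± 0.00234 of the flanks for ARPE-19 and 0.0678% ± 0.0193 for H7, and the flanks held 0.0504% ± 0.0033 of an ARPE-19 list and 0.0325% ± 0.0056 of an H7 list (SD, n = 3 each). When each list was cut to its 8613 strongest peaks, the flank counts were 5 ± 1 and 2.67 ± 0.577, a ratio of 1.88, and with a −log10 q of at least 5 they were 16.7 ± 1.15 and 1.67 ± 0.577, a ratio of 10. At that q the whole lists differed 6.88 times in length, and the share of a list in the flanks 1.49 times. Under lists of equal length, ARPE-19 replicates 1, 2 and 3 had 5, 6 and 4 flank peaks and H7 replicates 1, 2 and 3 had 2, 3 and 3. That cut keeps all of H7 replicate 3 but only the strongest peaks of the others, so strength is not matched. How far list length accounts for the flank difference was not tested.

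Of the 8 flanks, 6 (75%) had more peaks in every ARPE-19 library than in every H7 library, where 48.1% of all 200 kb windows did. The flank on the 3′ side of HOXA was the fullest, with 8, 7 and 7 peaks in ARPE-19 and 1, 1 and 0 in H7. The nearest coding genes listed beyond the 3′ end of HOXA are SKAP2, an adaptor protein of immune cell signalling, SNX10, a sorting nexin, and CBX3, a heterochromatin protein. On the 5′ side of HOXA, towards the homeobox gene EVX1, the counts were 2, 1 and 2 in ARPE-19 and 0 in every H7 library. HOXB had 1, 3 and 2 ARPE-19 peaks on its 3′ side, towards SKAP1, and no H7 peak. Its 5′ side had 3, 1 and 2 in ARPE-19 and 1, 0 and 1 in H7, and there the lines overlapped. The HOXC flanks, towards SMUG1, a DNA repair glycosylase, on the 3′ side and CALCOCO1 on the 5′ side, had 2, 3 and 3 and then 2, 1 and 1 ARPE-19 peaks. H7 had 0, 1 and 1 on the 3′ side of HOXC and none on the 5′ side. HOXD had 3, 2 and 2 ARPE-19 peaks against 1, 2 and 1 in H7 on the 3′ side, towards MTX2, a mitochondrial import protein, where the lines overlapped. On the 5′ side of HOXD the counts were 3, 2 and 4 in ARPE-19 against 1, 1 and 0 in H7.

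**Figure D3:**
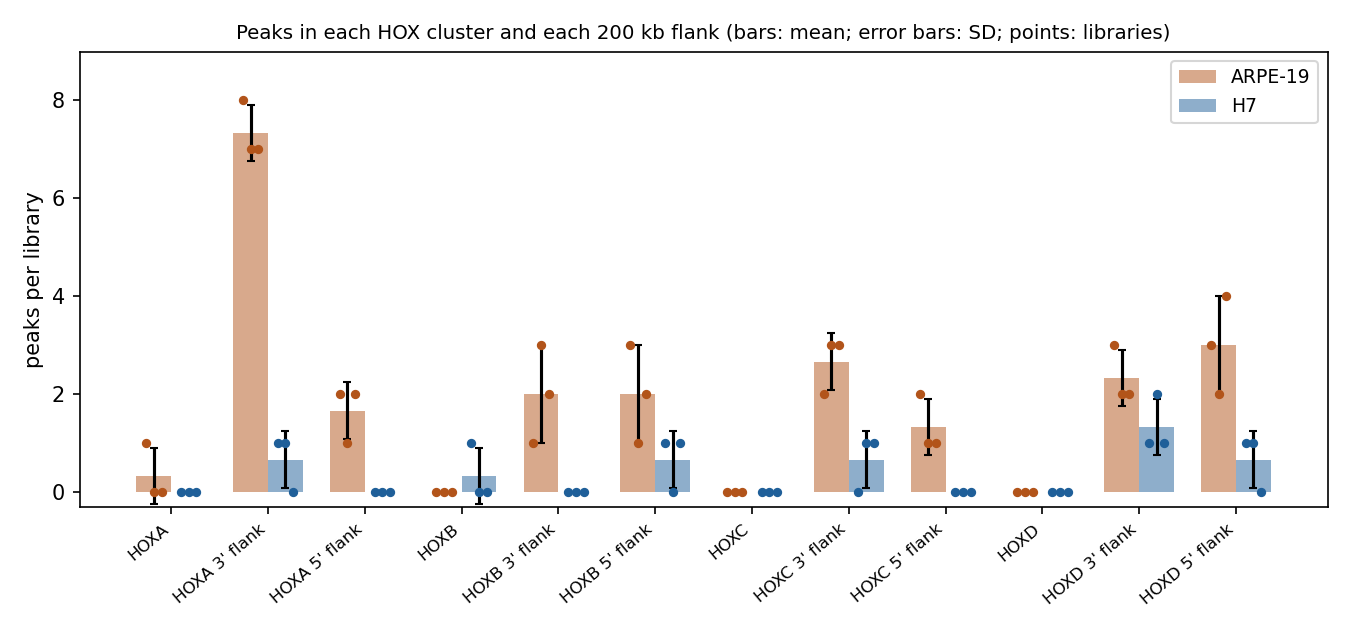
Peaks per library (y axis) in each cluster window and each 200 kb flank (x axis), with bars for the mean of 3 libraries, error bars for the SD and points for the libraries, ARPE-19 in orange and H7 in blue. The 3′ flank of HOXA stands highest at 8, 7 and 7 peaks in ARPE-19, and the HOXC and HOXD windows are at 0.

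The 3′ sides together had 14, 15 and 14 peaks in ARPE-19 and 2, 4 and 2 in H7, and the 5′ sides 10, 5 and 9 and 2, 1 and 1. The higher number on the 3′ side in ARPE-19 lay at HOXA. Without HOXA the 3′ sides had 6, 8 and 7 peaks and the 5′ sides 8, 4 and 7, which overlapped. The peak nearest to a cluster was on the 3′ side in all 4 cases, at 7.64 kb from the HOXA window against 67.3 kb on the 5′ side, 26.6 kb against 159.8 kb in HOXB, 19.9 kb against 90.5 kb in HOXC and 4.83 kb against 72.4 kb in HOXD. These 3′ peaks had 4 to 9 summit reads. The one beside HOXD, chr2:177064826-177064990, had 4 summit reads in ARPE-19 replicate 1, and the one beside HOXB, chr17:46573296-46573445, had 4 in ARPE-19 replicate 2. No test was run on these distances, and each of the nearest 3′ peaks rests on 1 or 2 libraries. The pattern held at all 4 clusters in neither line alone. In ARPE-19 the nearest peak to HOXC was on the 5′ side, at 90.5 kb against 132.7 kb on the 3′ side. In H7 the flanks of HOXB had peaks on the 5′ side only.

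Of the 34 flank regions, 12 (35.3%) were called in all 3 ARPE-19 and no H7 library, where 26% of all merged regions were. None was called in all 3 H7 and no ARPE-19 library, where 1.82% of all regions were. A further 3 regions (8.82%, against 8.51% of all regions) had peaks in both lines, and 10 (29.4%, against 46.4%) were called in 1 library only. No flank region was called in all 6 libraries, where 1538 of the 84659 regions (1.82%) were, so a count of 0 among 34 is near that share. Under lists of 8613 peaks each, 3 regions in place of 12 were called in every ARPE-19 and no H7 library. Summits of the 12 regions had 6 to 25 reads and authors' folds of 4.39 to 13.7, whereas the 9 regions called in 1 ARPE-19 library only had 4 to 10 reads. Calling depends on summit reads over background, so regions called in every ARPE-19 library tend to have higher summits by selection. The ranges overlapped.

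The strongest flank region by rank was on the 3′ side of HOXA at chr7:26957927-26958250, 171.8 kb from the window, with 25, 17 and 24 summit reads in ARPE-19 replicates 1, 2 and 3 and no H7 peak. Its authors' folds were 9.93 to 13.7, and its mean percentile by q was 90.5. Closer to HOXA, chr7:27105611-27106209 lay 23.8 kb from the 3′ edge, with 23, 24 and 25 reads in ARPE-19 and no H7 peak. That region was picked out after its values had been seen, as the closest to a cluster of those called in every ARPE-19 library. HOXA10, HOXA11 and HOXA13 are the genes at the 5′ end of the cluster. Regions in the flank on that side ranked below those just described on the 3′ side, though not below every 3′ region. The highest-ranked of the 5′ regions, chr7:27386577-27386854, had 12 reads in ARPE-19 replicate 1 and 7 in replicate 3 and was not called in replicate 2. Another, chr7:27317293-27317720, lay 67.3 kb from the window and had 7, 6 and 10 reads in ARPE-19 replicates 1, 2 and 3 and no H7 peak. ARPE-19 accessibility around HOXA therefore lay mainly beyond the 3′ end.

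On the 3′ side of HOXB, beyond HOXB1, the region named by rank, chr17:46550239-46550792, had 7 and 5 reads in ARPE-19 replicates 1 and 3 and stood at a mean percentile of 15.3. On the 5′ side, beyond HOXB13, chr17:46969775-46970312 was called in 5 of 6 libraries. It had 18, 14 and 16 reads in ARPE-19 replicates 1, 2 and 3 and 12 and 21 in H7 replicates 1 and 3, at 159.8 kb from the window. Only this region and one beyond HOXD1 were called in 5 libraries, and its read counts in H7 spanned those in ARPE-19. Its authors' folds over local background did not, at 5.96 and 8.11 in H7 replicates 1 and 3 against 7.75 to 9.22 in ARPE-19.

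Beside HOXC, chr12:54623462-54623736 on the 3′ side had 14, 13 and 12 reads, and chr12:54238929-54239501 on the 5′ side had 9, 11 and 11, in ARPE-19 replicates 1, 2 and 3. Neither had an H7 peak. The latter lay 90.5 kb beyond the 5′ edge, on the side of HOXC13, and bounds the peak-free stretch. The stretch is bounded on the other side, beyond HOXC4, by chr12:54469872-54470279, which was called in H7 replicates 2 and 3 with 5 and 9 reads and in no ARPE-19 library. The nearest called sites on the 2 sides of HOXC thus came from different lines.

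Beside HOXD, chr2:177178565-177179139 on the 3′ side had 15, 16 and 22 reads and chr2:176790996-176791371 on the 5′ side 17, 13 and 16 in ARPE-19 replicates 1, 2 and 3, with no H7 peak at either. The widest flank region, chr2:176866069-176867353, covered 1285 bases at 72.7 kb from the 5′ edge of HOXD, on the side of HOXD13. It had summits of 18 and 24 reads in ARPE-19 replicates 1 and 2, a pair of summits of 12 and 19 in replicate 3, and 8 reads in H7 replicate 2. On the 3′ side, beyond HOXD1, chr2:177133653-177134612 had 14, 10 and 16 reads in ARPE-19 and 9 each in H7 replicates 2 and 3. The flanks of HOXD were the ones with the most H7 calls, and 2 of the 3 regions shared between the lines lay there.

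Regions called in H7 but in no ARPE-19 library numbered 4 of 34, where 22.2% of all merged regions were of this kind. They had 5 to 17 summit reads and authors' folds of 3.58 to 8.74. The strongest, chr7:26988284-26988685 on the 3′ side of HOXA, had 17 and 11 reads in H7 replicates 1 and 2. The others were the HOXC region named above, chr2:177190569-177190813 with 7 and 12 reads in H7 replicates 1 and 2, and chr2:176748388-176748614 with 8 reads in H7 replicate 1. None was called in all 3 H7 libraries.

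**Figure D4:**
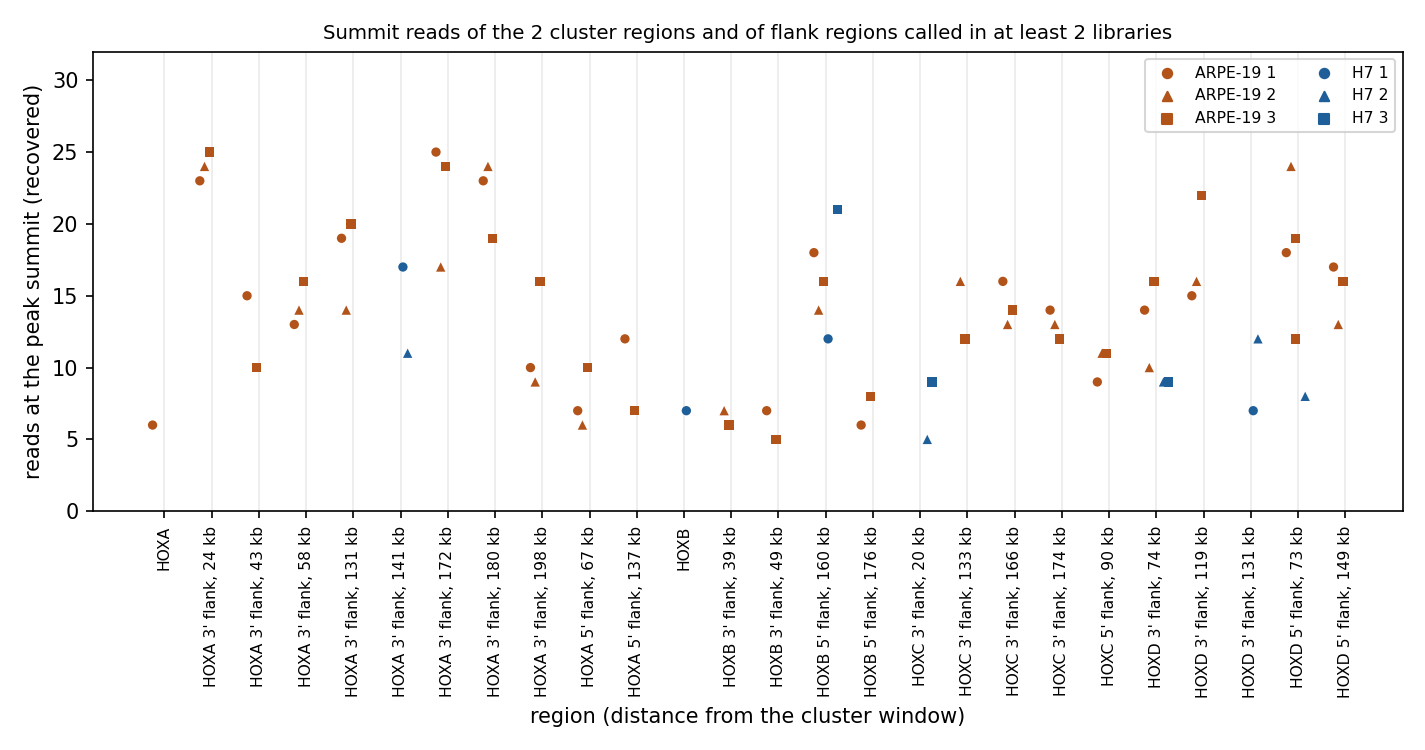
Reads at the summit of each peak (y axis, recovered from the authors' fold and p) for the 2 cluster regions and the 24 flank regions called in at least 2 libraries (x axis, with the distance from the cluster window), 1 marker per peak by library. The HOXA and HOXB cluster peaks, at 6 and 7 reads, are at the low end, and ARPE-19 summits on the 3′ side of HOXA reach 25.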

How the data were processed

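ATAC-seq peak lists of 3 ARPE-19 and 3 H7 libraries were used, grouped by the sample titles, with 1 list per library and no pooling. The 6 samples of 4C were not analysed here. The authors used MACS2 and bedtools on build hg19, per the submitters' processing notes. The aligner, the handling of duplicates and of mitochondrial DNA and any shift to the transposase cut are not given in the sources used here, and a missing shift would move summits by a few bases. The score deposited by the authors is the −log10 q times 10, as an integer. Their deposited fold is a ratio of summit reads to local background within a library. For −log10 p and −log10 q the authors deposited the result of their caller's test of each peak within its library, and the deposited summit offset counts bases from the start of the peak. No peak had a q above 0.0498.

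Members and lists were chosen with earlier results of these data known. Summit reads and backgrounds were solved from fold and −log10 p, and 100% of the peaks checked returned the authors' p, as −log10, to within 0.001 (every 20th, and all of the clusters and flanks). Background is relative depth, not a read total. Positions are 1-based on hg19. Gene order, strand and neighbours came from RefSeq on GRCh38.p14, whose gene coordinates were not used, and no peak was assigned to a gene. Peaks were merged into regions where they overlapped by at least 1 base. Lines were compared by exact two-sided permutation over 20 assignments with n = 3 each, on log2(peaks + 1) for counts, and a p under 0.05 cannot be reached. The clusters were set against the flanks by an exact sign-flip test over 6 libraries, which takes the libraries of both lines as independent. It tests against a ratio of 0, which is not equal density because of the number added. Named regions were the 3 of highest mean percentile by q and the widest of each cluster, those called in at least 2 H7 or all 6 libraries, and the highest-ranked on each flank among those in at least 2 libraries. Others described were picked after their values had been seen. The share of each kind of window was taken over windows tiled between the first and the last peak of each chromosome. Alternatives were −log10 q of at least 5, the 8613 strongest peaks of each list, 50% overlap, flanks of 100 kb, other definitions of regions of 1 line, a pseudocount of 0.5, a replicate block and leaving out each library. The steps were tested on simulated data. Versions were scipy 1.17.1, pandas 2.3.3 and numpy 2.4.6 under Python 3.11.15, with matplotlib 3.10.9 for plots.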

Additional observations from a re-analysis of the deposited data

How the results depend on the processing

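The comparison of flank peaks between lines, the ratio of clusters to flanks over all 6 libraries and the flank regions of 1 line were added after the data had been seen. With 0.5 added the mean log2 ratio of clusters to flanks was −2.31 (exact p = 0.03125), and leaving out each library gave −1.95 to −1.30 (exact p 0.0625 to 0.125). With lists of 8613 peaks it was −0.73 and with a −log10 q of at least 5 it was −1.28, but no library then had a cluster peak, so both values restate the flank counts and the added 1 and test nothing of the clusters. The difference in covered bases, H7 minus ARPE-19, ran from −0.0175 to 0.0134 percentage points without 1 library, and turned positive at 0.0134 without ARPE-19 replicate 1 and at 0.00254 without H7 replicate 2 or 3. The share of a list in the clusters ran from −0.00075 to 0.00251 and turned negative at −0.00075 without H7 replicate 1. These reversals follow from the 1 peak in each line. Flank regions called only in ARPE-19 numbered 3 with lists of 8613 peaks, 12 to 16 without 1 library and 18 when 2 of 3 libraries were enough, against 12. Those called only in H7, 0 as reported, numbered 0 to 2 without 1 library (1 without H7 replicate 1, 2 without replicate 3) and 3 when 2 of 3 libraries were enough. The cause of these moves was not tested. The H7 minus ARPE-19 difference in the ratio of clusters to flanks and that in flank peaks kept their signs, and the extremes of 0.71 and 2.75 of the former come from those same lists. There the ends and the strength have no value either. A replicate block gave 2.24 for the ratio and −2.24 for flank peaks, each with an exact p of 0.25, the smallest of 3 pairs. Libraries with the same replicate number had correlations of −0.0020, −0.062 and 0.112 over 1382 windows of 1 Mb. Those with different numbers ranged from −0.142 to 0.136. These values bear on pairing by replicate number only and do not measure how alike the 2 lines were over the genome. They show no pairing by number but cannot tell whether equal numbers were processed together. No summit under 4 reads in ARPE-19, or under 5 in H7 replicates 1 and 2 and 6 in replicate 3, could be called, and a missing peak does not show closed chromatin.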
